A study of Mus musculus with 8 samples.

Results

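Plasma membrane amino acid transporters were described in 8 RNA sequencing libraries of mouse lung after bleomycin. The members were 9 listed genes, found by symbol among the 18824 genes of the deposited count table: Slc7a1, Slc7a2, Slc7a5, Slc7a6, Slc7a7, Slc7a8, Slc7a10, Slc3a2 and Slc1a5. They were chosen with their difference between the 2 groups of libraries already known, so that difference is given as a description and carries no test. The study concerns SLC15A3, an endolysosomal transporter of histidine and small peptides, in pulmonary fibrosis, and compared wild-type lungs (WT_BLM, n = 4) with Slc15a3-/- lungs (KO_BLM, n = 4). Mice of both genotypes were 8 weeks old when they received bleomycin, a drug that causes lung injury and scarring, at 2 mg/kg in 50 µl of saline into the trachea, and the lungs were taken on day 21. Both groups therefore carry the bleomycin injury, and saline-treated lungs were not analysed here. The labels give no strain, sex or batch, do not say how the Slc15a3 allele was made, and do not state that each library came from a separate animal, so the errors given measure the spread between these samples.

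Amino acids cross the cell surface through carriers of several families. SLC7A1 and SLC7A2, the cationic amino acid transporters CAT1 and CAT2, carry arginine, lysine and ornithine on their own. The other SLC7 proteins considered here are light chains that reach the surface bound to the heavy chain SLC3A2 (CD98) and exchange one amino acid for another: LAT1 (SLC7A5) and LAT2 (SLC7A8) carry large neutral amino acids, y+LAT2 (SLC7A6) and y+LAT1 (SLC7A7) exchange cationic for neutral ones, and Asc-1 (SLC7A10) carries small neutral ones such as glycine, alanine and serine. SLC1A5 (ASCT2) is a sodium-dependent exchanger that brings in glutamine and other neutral amino acids. In macrophages arginine feeds both arginase and the inducible nitric oxide synthase, and in fibroblasts glycine and proline supply collagen synthesis.

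Promoter sequences were available for 6 of the 9 members, Slc7a1, Slc7a6, Slc7a7, Slc7a8, Slc7a10 and Slc3a2, from RefSeq on GRCm38.p6. The 250 bases upstream of the start are printed for 3 light chains that show the 3 patterns found below: Slc7a10 was far higher in KO_BLM, Slc7a8 was lower, and Slc7a7 did not separate the groups. The windows lie at chr7:35186135-35186384 on the plus strand (Slc7a10), chr14:54781887-54782136 on the minus strand (Slc7a8) and chr14:54417945-54418194 on the minus strand (Slc7a7, the start farthest upstream of the 5 listed). RefSeq's gene spans of Slc7a10, Slc7a6, Slc7a7 and Slc3a2 begin upstream of the starts used here. The Slc3a2 window (chr19:8713898-8714147, minus strand) lies well inside its gene span, so it belongs to an internal start. The printed Slc7a10 and Slc7a7 windows and those of Slc7a6 also lie inside their gene spans. The printed windows read 5′ to 3′, and capitals mark a match to one of the 3 motifs searched.
Slc7a10: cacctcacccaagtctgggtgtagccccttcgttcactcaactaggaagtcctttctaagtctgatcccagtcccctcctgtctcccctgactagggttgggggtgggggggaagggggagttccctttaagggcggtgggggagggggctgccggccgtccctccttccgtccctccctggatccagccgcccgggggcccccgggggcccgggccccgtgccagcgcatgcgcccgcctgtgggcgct
Slc7a8: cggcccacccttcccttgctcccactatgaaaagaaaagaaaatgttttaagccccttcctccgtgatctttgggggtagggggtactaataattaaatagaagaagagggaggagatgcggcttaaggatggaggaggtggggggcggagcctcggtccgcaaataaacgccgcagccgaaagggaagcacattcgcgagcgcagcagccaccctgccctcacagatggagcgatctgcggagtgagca
Slc7a7: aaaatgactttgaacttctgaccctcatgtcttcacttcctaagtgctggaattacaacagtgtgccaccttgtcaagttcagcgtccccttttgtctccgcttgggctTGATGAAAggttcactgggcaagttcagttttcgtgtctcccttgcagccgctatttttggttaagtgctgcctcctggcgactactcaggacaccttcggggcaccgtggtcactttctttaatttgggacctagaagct
The motifs were TGATGNAA, the core bound by ATF4 with C/EBP partners, GCGTG, the core bound by the aryl hydrocarbon receptor or hypoxia-inducible factors with ARNT, and CACGTG, the E-box bound by MYC and TFEB, each searched on both strands. Over all 32851 promoter windows of this length, 3.45% held TGATGNAA, 28.2% held GCGTG and 6.02% held CACGTG. Among the 6 members TGATGNAA occurred in Slc7a7 and GCGTG in Slc7a6, and no member window held CACGTG. A member was counted if any of its windows held the motif, and Slc7a7 had 5 windows, whereas the shares above are per window. The printed Slc7a10 and Slc7a8 windows held none of the 3. The Slc7a10 window had a GC content of 69.6% and 14 CpG dinucleotides, the Slc7a8 window 55.6% and 14, and the Slc7a7 window 48.8% and 7, against medians of 52.4% and 6 over all windows.

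Library totals were 18878835 to 20180831 counts in WT_BLM and 17627999 to 18471445 in KO_BLM. The targeted gene Slc15a3 was at 51.3 ± 4.11 CPM (each library's counts brought to the same total after TMM adjustment) in WT_BLM and 0.610 ± 0.303 CPM in KO_BLM (SD, n = 4 each). Lung markers were high in both groups, with Sftpc of alveolar type 2 cells between 4720 and 7290 CPM in WT_BLM and between 13900 and 21700 CPM in KO_BLM. With edgeR's quasi-likelihood test at an adjusted p of 0.05, 3057 of 14746 tested genes were higher in KO_BLM and 3061 lower. With library totals alone the split was 3789 higher and 2253 lower, that is 62.7% of called genes higher in place of 50.0%.

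All 9 members passed the filter on low counts. In KO_BLM 6 members were lower (Slc7a1, Slc7a2, Slc7a5, Slc7a6, Slc7a8 and Slc3a2) and 2 were higher (Slc7a10 and Slc1a5), while Slc7a7 was not past the threshold. Of all tested genes 41.5% were past it, 20.7% higher and 20.8% lower, and since the members were chosen on this contrast nothing is read from their count. The 6 lower and 2 higher members were also those whose groups did not overlap in CPM, which held for 40.9% of tested genes, 20.3% higher and 20.7% lower. The median log2 fold change was -0.74 over the members and 0.0025 over all tested genes.

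**Figure D1:**
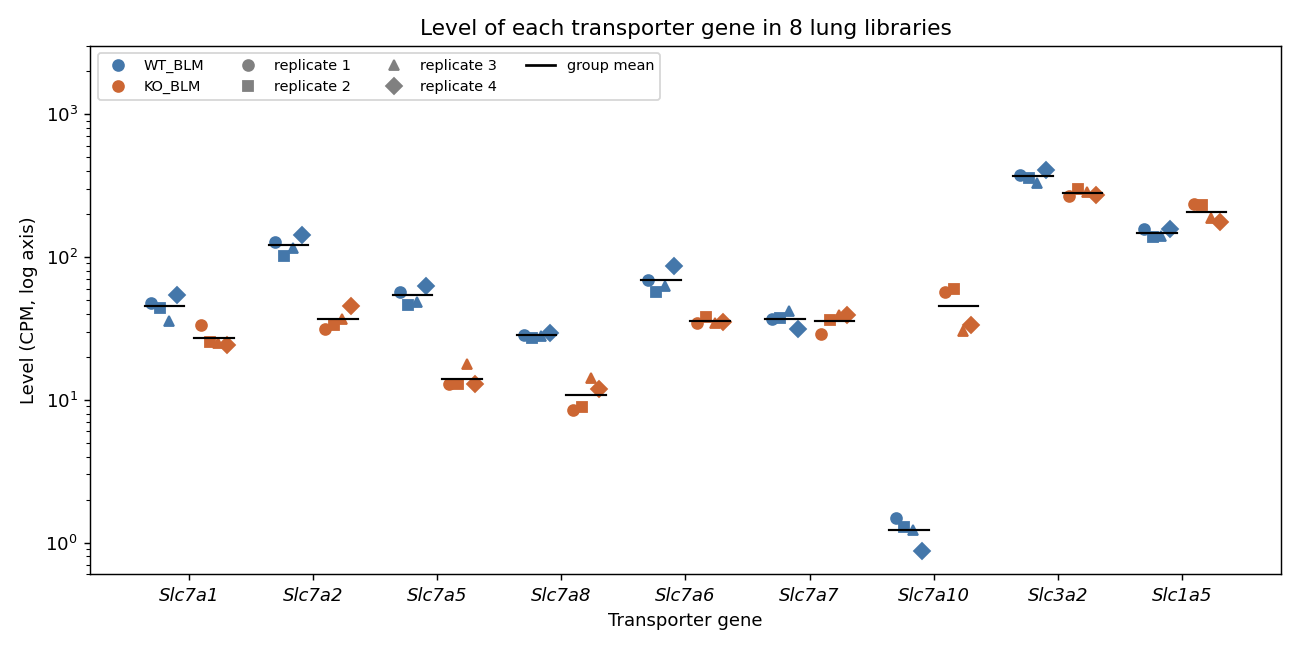
Level of each transporter gene (CPM, log axis) in the 4 WT_BLM libraries (blue) and the 4 KO_BLM libraries (orange), with replicates 1 to 4 by symbol and a bar at each group mean. Slc7a10 moves from 0.871 to 1.48 CPM in WT_BLM to between 30.4 and 59.7 CPM in KO_BLM, and Slc7a7 is the one gene whose groups overlap.

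Of the cationic transporters, Slc7a2 (chr8:40862341-40922070), which encodes the cytokine-inducible CAT2, was the more reduced in KO_BLM. Its levels in WT_BLM replicates 1 to 4 were 127, 101, 115 and 143 CPM, and in KO_BLM 31.1, 33.4, 36.9 and 45.5 CPM. Every KO_BLM library thus lay below every WT_BLM library, and KO_BLM kept 30.3% of the WT_BLM level (log2 fold change -1.72, SE 0.14). Slc7a1 (chr5:148327410-148399904), which encodes the widely expressed CAT1, was at 47.4, 44.0, 35.3 and 54.0 CPM in WT_BLM and at 33.3, 25.4, 24.9 and 24.2 CPM in KO_BLM. The groups did not overlap, but KO_BLM replicate 1 came close to the lowest WT_BLM library and stood above the other 3 of its group. The difference was -0.74 on the log2 scale (SE 0.15), with 59.7% of the level left. Per length, the summed FPKM (reads per kilobase of gene and library size) of both genes was 18.9 ± 2.12 in WT_BLM and 7.94 ± 0.669 in KO_BLM (SD, n = 4), and Slc7a2 made up 68.7 ± 3.12% of the sum in WT_BLM and 52.5 ± 7.17% in KO_BLM.

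The lower level of Slc7a2 was accompanied by lower markers of monocyte-derived macrophages and of fibroblasts. The marker counts below stand beside 20.8% lower and 20.7% higher among all tested genes. The summed level of 15 monocyte-derived macrophage markers ran from 12800 to 14900 CPM in WT_BLM and was 2010, 2320, 5480 and 4990 CPM in KO_BLM replicates 1 to 4, with 11 markers lower and 1 higher. Most of the WT_BLM sum was Fn1 (4580 to 5890 CPM) and Spp1 (4110 to 4740 CPM). In KO_BLM Fn1 was at 585 to 1230 CPM and Spp1 at 120, 182, 1560 and 1700 CPM. The higher marker was Ly6c2 (log2 fold change 0.79), while Cx3cr1 (0.23), Ccr2 (0.23) and Gpnmb (-1.16) were not past the threshold. The 12 fibroblast and myofibroblast markers summed to 9010 to 10100 CPM in WT_BLM and 3370 to 3620 CPM in KO_BLM, with 10 lower and 1 higher. Of 15 alveolar macrophage markers 5 were lower and 4 higher, with sums of 1180 to 3390 CPM and 1000 to 1250 CPM. No marker of these lists was at 0 in all libraries of a group. In bulk tissue fewer cells of a type and less RNA per cell cannot be told apart, and the part of these cell types in the levels of any member was not tested.

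Slc7a5 and Slc7a8, the light chains for large neutral amino acids, were both lower in KO_BLM. Slc7a5 (chr8:121881146-121907686), which encodes LAT1, the main route of leucine into growing cells, was at 57.1, 46.4, 48.6 and 62.6 CPM in WT_BLM and at 12.8, 12.8, 17.8 and 12.8 CPM in KO_BLM. The 3 other KO_BLM libraries were alike to within rounding while replicate 3 stood higher, and all 4 lay far below WT_BLM. KO_BLM kept 26.2% of the level (log2 fold change -1.93, SE 0.14), the largest decrease among the 9 members. Slc7a8 (chr14:54722215-54781886), which encodes LAT2, was at 28.4, 27.2, 28.0 and 29.5 CPM in WT_BLM and at 8.43, 8.87, 14.2 and 11.9 CPM in KO_BLM. The WT_BLM libraries were close to one another (coefficient of variation 3.29%), the KO_BLM libraries less so (25%), and the groups were well apart, with 38.4% of the level left (log2 fold change -1.38, SE 0.16).

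The light chains that exchange cationic for neutral amino acids differed from each other. Slc7a6 (chr8:106168219-106198714), which encodes y+LAT2, was at 68.7, 57.1, 62.8 and 86.4 CPM in WT_BLM and at 34.3, 37.7, 34.4 and 34.9 CPM in KO_BLM. The KO_BLM libraries varied by 4.57% and lay below all WT_BLM libraries, with 51.4% of the level left (log2 fold change -0.96, SE 0.12). Slc7a7 (chr14:54369442-54420068), which encodes y+LAT1 and whose human counterpart is mutated in lysinuric protein intolerance, was at 36.6, 37.6, 41.9 and 31.3 CPM in WT_BLM and at 29.0, 35.9, 39.2 and 39.1 CPM in KO_BLM. Its groups overlapped over most of their range, with group means of 36.9 ± 4.35 and 35.8 ± 4.78 CPM (log2 fold change -0.04, SE 0.12), and the sign turned with library totals alone (0.0436). At its 3′ end Slc7a7 overlaps Oxa1l on the opposite strand by 232 bases, and Oxa1l was at 64.2 ± 2.81 CPM in WT_BLM and 64.2 ± 9.02 CPM in KO_BLM.

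Slc7a10 (chr7:35186095-35201116), which encodes Asc-1, a carrier best known from brain and from adipocytes, had the largest difference of the members. Its counts were 27, 26, 23 and 16 in WT_BLM and 1030, 1070, 584 and 642 in KO_BLM, or 1.48, 1.29, 1.23 and 0.871 CPM against 56.7, 59.7, 30.4 and 33.5 CPM. The KO_BLM libraries were all far above the WT_BLM libraries, with replicates 1 and 2 higher than 3 and 4. The exact Poisson 95% interval, which covers counting error only, was 17.8 to 39.3 for the highest WT_BLM count and 538 to 633 for the lowest KO_BLM count. The fitted difference was 36.7-fold (log2 fold change 5.20, SE 0.29), which placed Slc7a10 first among the rises of all tested genes and at rank 8 by size in either direction. Leaving out each library in turn gave log2 fold changes of 5.04 to 5.35, and the compressed scale log2(FPKM + 1) gave 3.77. The gene shares 1088 bases at its 3′ end with Lrp3 on the opposite strand in the GENCODE annotation. Lrp3 was at 13.5 ± 1.71 CPM in WT_BLM and 14.5 ± 2.61 CPM in KO_BLM (log2 fold change 0.10, SE 0.15, edgeR adjusted p = 0.623, with a sign that turned without KO_BLM replicate 1).

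The higher level of Slc7a10 came with higher markers of several cell types, whose part in it was not tested. The marker counts below stand beside 20.7% higher and 20.8% lower among all tested genes. The 10 alveolar type 2 markers, 9 of them higher, summed to 9150 to 13500 CPM in WT_BLM and to 36200, 33900, 26600 and 23500 CPM in KO_BLM replicates 1 to 4. Of 9 ciliated and club cell markers 8 were higher, with sums of 3390 to 9660 CPM in WT_BLM and 23600, 23500, 12100 and 14200 CPM in KO_BLM. Replicates 1 and 2 were thus the highest in both sums, as for Slc7a10. Scgb1a1 made up 2520 to 8340 CPM of the ciliated and club cell sum in WT_BLM and 9900 to 20500 CPM in KO_BLM. Tppp3 and Cyp2f2 were also highest in KO_BLM replicates 1 and 2, but the other genes of that list were not. Foxj1, Ccdc39, Dnah5 and Muc5b were highest in replicate 4. All 12 T and NK cell markers (18.8 to 44.3 CPM against 98.0 to 211 CPM) and all 8 B cell markers (32.9 to 112 CPM against 208 to 323 CPM) were higher, with replicate 3 the highest in KO_BLM. The 12 adipocyte markers summed to 561 to 764 CPM in WT_BLM and 205 to 373 CPM in KO_BLM, of which Lpl, a gene that macrophages also express, made up 537 to 730 CPM and 179 to 343 CPM. Of the 12 genes 5 were tested, with Cidea higher and Lpl and Dgat2 lower. Of the untested genes Adipoq averaged 0.0532 CPM in WT_BLM and 0.736 CPM in KO_BLM, Plin1 0.257 and 0.268 CPM, and Lep was at 0 in all WT_BLM libraries. Cfd was at 0.331, 4.58, 0.834 and 17.8 CPM in KO_BLM replicates 1 to 4 and averaged 0.136 CPM in WT_BLM, and Retn (1.72 CPM) and Pck1 (1.88 CPM) were also highest in KO_BLM replicate 4. Adipoq was at 0.0551, 0.335, 0.209 and 2.35 CPM in KO_BLM replicates 1 to 4. Nervous tissue markers summed to 22.7 to 38.1 CPM in WT_BLM and 23.4 to 28.3 CPM in KO_BLM (5 tested, 2 higher, 1 lower). Muscle markers summed to 32.6 to 132 CPM and 63.0 to 238 CPM (7 tested, 4 higher). Kidney and proximal tubule markers summed to 37.7 to 46.4 CPM and 74.9 to 139 CPM (2 tested, 1 higher). Of that sum Lrp2, the higher gene, made up 36.3 to 44.9 CPM and 74.0 to 138 CPM, and Cubn was not past the threshold. Endothelial markers summed to 2620 to 3200 CPM in WT_BLM and 3870, 3330, 2930 and 2550 CPM in KO_BLM replicates 1 to 4 (8 tested, 5 higher, 2 lower). Replicates 1 and 2 were thus the highest for this sum as well, but not for the adipocyte, nervous tissue, kidney or muscle sums. Whether the order of the KO_BLM libraries in any of these sums bears on Slc7a10 was not tested.

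Slc3a2 (chr19:8706882-8723369), which encodes the heavy chain CD98, had the smallest difference of the 6 lower members. Its levels were 375, 357, 330 and 404 CPM in WT_BLM and 267, 298, 287 and 271 CPM in KO_BLM. All KO_BLM libraries lay below the lowest WT_BLM library, with 76.6% of the level left (log2 fold change -0.39, SE 0.09). The targeted gene Slc15a3 lies on the same chromosome (chr19:10842544-10857915), and any part of that position in the Slc3a2 level was not tested. Slc1a5 (chr7:16781334-16798274), the glutamine exchanger, was the other member higher in KO_BLM, at 157, 137, 139 and 156 CPM in WT_BLM and at 233, 231, 187 and 175 CPM in KO_BLM. The groups did not overlap, and replicates 1 and 2 were again the highest in KO_BLM, as for Slc7a10. The difference was 1.40-fold (log2 fold change 0.49, SE 0.11).

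**Figure D2:**
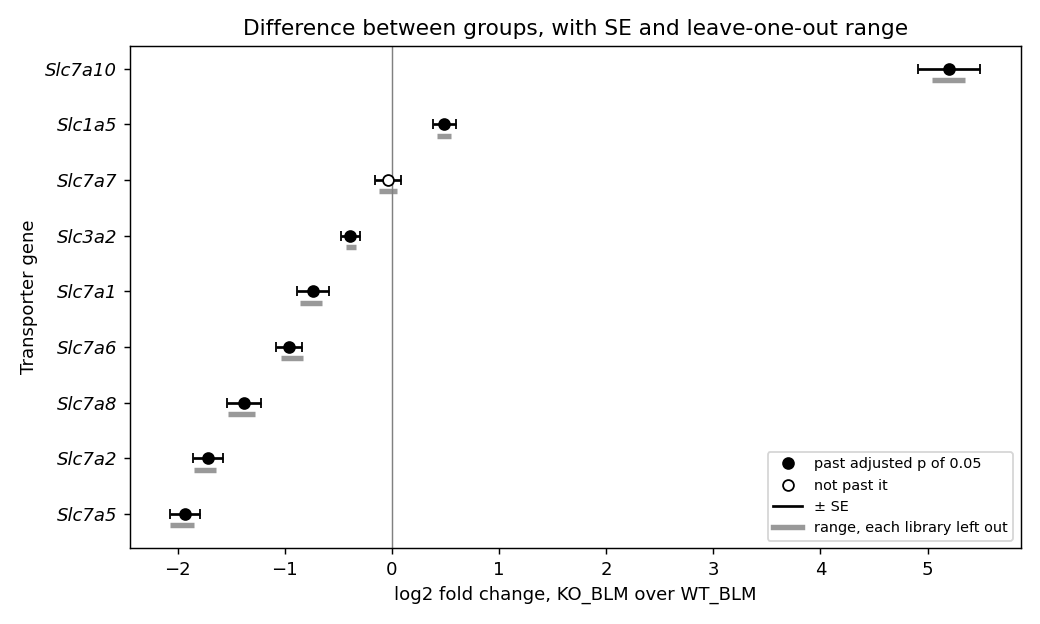
Log2 fold change of each transporter gene in KO_BLM over WT_BLM, with its standard error (black bars) and the range over fits that leave out 1 of the 8 libraries in turn (grey bars). Filled points are past an adjusted p of 0.05, and the values run from -1.93 for Slc7a5 to 5.20 for Slc7a10, with Slc7a7 at -0.04 as the one open point.

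Levels of different members can be compared only per length, for which the deposited FPKM were used. In WT_BLM the order from high to low was Slc1a5 (51.6 ± 2.39 FPKM), Slc3a2 (36.1 ± 2.19), Slc7a5 (14.8 ± 1.63), Slc7a2 (12.9 ± 1.51), Slc7a7 (10.8 ± 1.53), Slc7a1 (5.92 ± 0.879), Slc7a6 (5.16 ± 0.795), Slc7a8 (3.53 ± 0.0319) and Slc7a10 (0.529 ± 0.116). The ranges of Slc7a5 and Slc7a2, of Slc7a2 and Slc7a7, and of Slc7a1 and Slc7a6 overlapped, while the other neighbours in this order did not. In KO_BLM Slc7a10 stood at rank 3 of 9 with 20.6 ± 6.55 FPKM, below Slc1a5 (76.7 ± 9.25) and Slc3a2 (29.4 ± 1.59) and above Slc7a7 (11.1 ± 1.73). Slc7a2 (4.19 ± 0.834), Slc7a5 (4.12 ± 0.769) and Slc7a1 (3.75 ± 0.512) followed with overlapping ranges, and Slc7a6 (2.82 ± 0.135) and Slc7a8 (1.45 ± 0.387) came last. The order depends on the gene lengths behind the FPKM. For Slc3a2 the authors' values imply 9.85 kb, which is 3.50 times the longest coding transcript in GENCODE (2.81 kb), and for Slc7a6 12.9 kb against 3.75 kb. With these transcript lengths Slc3a2 came first in both groups, at 126 ± 7.67 and 103 ± 5.56 on the FPKM scale. Slc7a6 moved from rank 7 to rank 3 in WT_BLM (17.7 ± 2.73) and from rank 8 to rank 5 in KO_BLM (9.71 ± 0.464), above Slc7a5 and Slc7a2 in both, while Slc7a10 kept rank 9 in WT_BLM and rank 3 in KO_BLM.

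Among the 5 light chain genes the mixture of transcripts differed between the groups. Slc7a10 made up 1.79, 1.74, 1.55 and 1.02% of the summed light chain FPKM in WT_BLM and 61.0, 58.9, 38.8 and 43.1% in KO_BLM. On this scale it was the least abundant of the 5 in every WT_BLM library and the most abundant in every KO_BLM library, whereas with coding transcript lengths its KO_BLM range (16.2 to 31.1) overlapped that of Slc7a7 (12.7 to 18.3). Slc7a5 went from 42.4 ± 3.60% to 10.5 ± 2.88%. The summed light chain level was 34.8 ± 1.22 FPKM in WT_BLM and 40.1 ± 4.51 FPKM in KO_BLM, and without Slc7a10 it was 34.3 ± 1.24 and 19.5 ± 2.61 FPKM. The 4 other light chains together were thus lower in all KO_BLM libraries (16.2 to 22.2 FPKM) than in any WT_BLM library (32.5 to 35.3 FPKM). The sum with Slc7a10 was 36.3 to 45.9 FPKM in KO_BLM against 33.0 to 35.7 FPKM in WT_BLM. With coding transcript lengths that sum overlapped between the groups (52.4 to 63.2 against 52.2 to 58.2). Neither scale carries the TMM adjustment, so no difference between the groups is read from the sum with Slc7a10. The sum equalled 96.8 ± 6.62% of the Slc3a2 level in WT_BLM and 137 ± 16.4% in KO_BLM. With coding transcript lengths these ratios were 44.1 ± 2.94% and 55.0 ± 4.92%, the sums 55.5 ± 2.48 and 56.4 ± 4.89 on the FPKM scale, the Slc7a10 share 1.10 ± 0.268% and 41.4 ± 10.3%, and the Slc7a5 share 26.5 ± 1.99% and 7.39 ± 1.86%. These are transcript levels, and which light chains were bound to SLC3A2 was not measured.

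**Figure D3:**
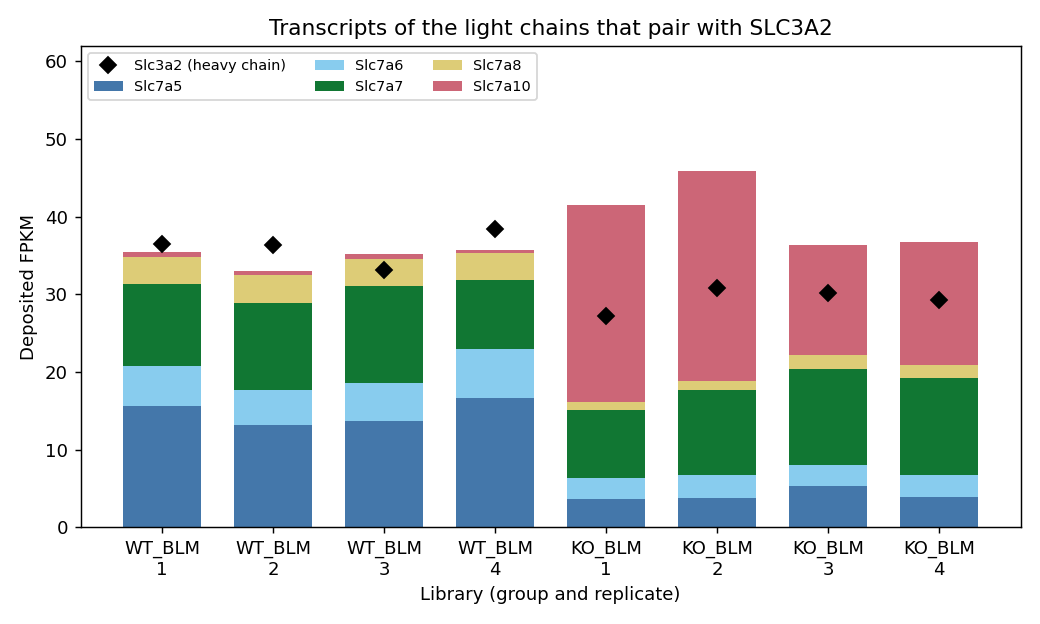
Deposited FPKM of the 5 light chain genes, stacked for each library (4 WT_BLM, 4 KO_BLM), with the heavy chain gene Slc3a2 as black diamonds. Slc7a10 is a thin top segment of 1.02 to 1.79% in WT_BLM and 38.8 to 61.0% of the stack in KO_BLM, and Slc7a5 shrinks from 42.4% to 10.5% on average.

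The genes whose log2 CPM followed a member most closely over the 8 libraries were sought among 11899 genes, by Pearson's r, as a description in which all points share the difference between the groups. For Slc7a10 they were Hc, complement C5 (r = 0.998), Apbb1 (0.997), Scn3a (0.996), Rnf186 (0.996) and Sema4f (0.995), among 317 genes with an r over 0.95. Hc was at 95.5, 85.3, 94.3 and 76.4 CPM in WT_BLM and 655, 610, 416 and 527 CPM in KO_BLM, which is the same order of the groups and the same higher pair of KO_BLM replicates 1 and 2. For Slc7a2 they were Adamts12 (0.997), P4hb (0.997), Myc (0.996), Col12a1 (0.996) and Tnfrsf12a (0.995), among 487. P4hb is a subunit of the collagen prolyl hydroxylase, and Col12a1 is a fibril-associated collagen. For Slc7a5 they were Def8 (0.999), Leprot (0.997), Rab5c (0.997), Ccdc86 (0.997) and Ube2m (0.997), among 533. Within groups, as deviations from the group means, the closest genes were Nxf1 (0.982) for Slc7a10, Znhit3 (0.992) for Slc7a2 and Nsmce2 (0.993) for Slc7a5, and Def8 was again among the 5 closest to Slc7a5 (0.980). An r over 0.95 was reached by 26, 23 and 18 genes in turn. These are the highest of 11899 values over 8 libraries, and whether they exceed chance was not tested.

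Of the 9 other listed genes of the SLC7 and SLC3 families, 8 were in the table and 4 were tested. Of these 2 were higher, 1 was lower and 1 was not past the threshold (median log2 fold change 0.57), beside 20.7% higher and 20.8% lower among all tested genes. Slc7a11, the cystine-glutamate exchanger xCT, fell from 9.58 ± 2.19 to 4.65 ± 2.61 CPM (log2 fold change -1.04, SE 0.34, edgeR adjusted p = 0.0342). KO_BLM replicate 4 of Slc7a11 (8.34 CPM) lay within the WT_BLM range and replicates 1 to 3 were at 2.70, 2.90 and 4.64 CPM, and leaving out replicate 1 or 4 of WT_BLM, or 1, 2 or 3 of KO_BLM, ended the call (edgeR adjusted p 0.0731 to 0.0936). Slc7a4 rose from 9.79 ± 1.12 to 14.9 ± 3.11 CPM (log2 fold change 0.60, SE 0.17, edgeR adjusted p = 0.0186), a call lost without KO_BLM replicate 1 (0.0503) or 2 (0.0559). Slc7a3, or CAT3, was at 1.49 ± 0.574 CPM in WT_BLM and 2.66 ± 0.558 CPM in KO_BLM (edgeR adjusted p = 0.0444), and leaving out replicate 1, 2 or 4 of either group ended the call (up to 0.108) and with the replicate number as a block (0.0909). Slc3a1, the heavy chain of the cystine transporter, was at 1.09 ± 0.265 and 1.59 ± 0.284 CPM (log2 fold change 0.54, edgeR adjusted p = 0.124).

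Of 25 amino acid transporters from other families 19 were tested, 9 higher, 5 lower and 5 not past the threshold (median log2 fold change 0.26). Among all tested genes 20.7% were higher and 20.8% lower. The 5 lower genes were Slc6a6, the taurine transporter (523 ± 195 to 163 ± 22.6 CPM, -1.69 on the log2 scale, SE 0.23, edgeR adjusted p = 0.000505), Slc36a4 (-0.90), the proton-coupled carrier Slc36a1 (-0.70), Slc38a2 and Slc6a14 (-0.79). Slc38a2, or SNAT2, the sodium-coupled carrier induced by amino acid shortage, fell from 236 ± 51.7 to 143 ± 9.0 CPM (log2 fold change -0.72, SE 0.14, edgeR adjusted p = 0.00307). Among the 9 higher genes Slc38a5, or SNAT5, a glutamine and glycine carrier, rose from 12.0 ± 3.26 to 40.0 ± 7.42 CPM (log2 fold change 1.73, SE 0.21, edgeR adjusted p = 0.000285). Slc1a3, a glutamate transporter, rose from 16.3 ± 1.23 to 34.5 ± 4.90 CPM (log2 fold change 1.08, SE 0.12, edgeR adjusted p = 0.000158). Other listed genes of the SLC1 family, singled out after their values were seen, also rose: Slc1a1 (0.49), Slc1a2 (1.29) and Slc1a4 (0.37) on the log2 scale, beside the member Slc1a5 (0.49). Slc1a2 was at a low level, 0.823 ± 0.209 CPM in WT_BLM and 2.03 ± 0.277 CPM in KO_BLM. The call of Slc1a4 ended when any library other than KO_BLM replicate 3 was left out (edgeR adjusted p up to 0.122), and that of Slc6a14 when KO_BLM replicate 1 (0.0631) or 2 (0.0742) was. The summed level of the 25 genes was 1110 to 1820 CPM in WT_BLM and 879 to 902 CPM in KO_BLM, and Slc6a6 accounted for 379 to 810 CPM of the former.

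**Figure D4:**
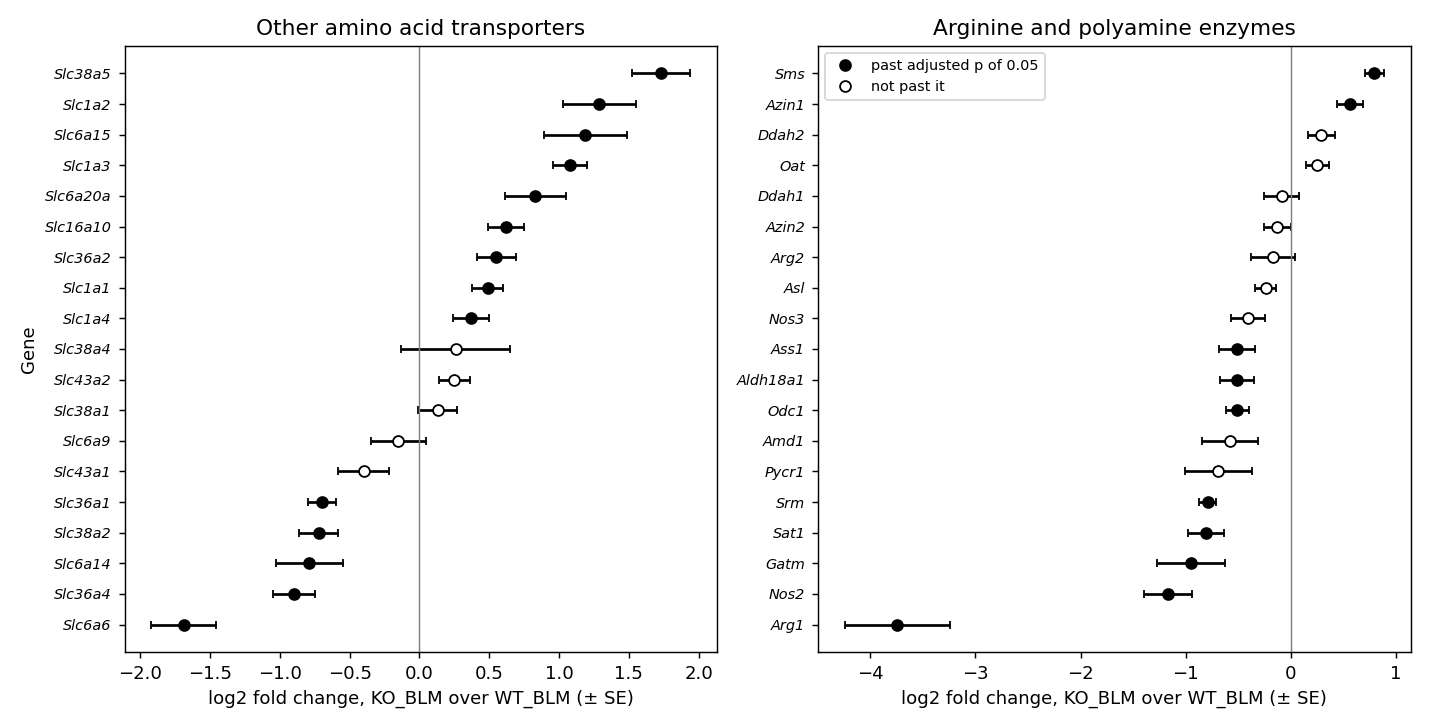
Log2 fold change in KO_BLM over WT_BLM, with standard errors, of the 19 tested amino acid transporters from other families (left) and the 19 tested enzymes of arginine and polyamine metabolism (right). Filled points are past an edgeR adjusted p of 0.05: 9 higher and 5 lower transporters, from Slc6a6 at -1.69 to Slc38a5 at 1.73, and 2 higher and 8 lower enzymes, with Arg1 lowest at -3.74.

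Arginine that CAT1 and CAT2 bring in is used by arginases, nitric oxide synthases and, through ornithine, polyamine synthesis. Of 19 tested enzymes of arginine and polyamine metabolism 8 were lower, 2 higher and 9 not past the threshold (median log2 fold change -0.51). Among all tested genes 20.8% were lower and 20.7% higher. The count of lower enzymes was 5 with library totals alone, and also when replicate 2 or 3 of WT_BLM or replicate 2 of KO_BLM was left out. Arg1, the arginase of alternatively activated macrophages, fell from 55.5 ± 25.3 to 4.13 ± 2.98 CPM (log2 fold change -3.74, SE 0.50, edgeR adjusted p = 0.000521). Nos2, the inducible nitric oxide synthase, fell from 15.4 ± 4.79 to 6.83 ± 1.23 CPM (log2 fold change -1.17, SE 0.23, edgeR adjusted p = 0.00354). In polyamine synthesis Srm, the spermidine synthase, fell (log2 fold change -0.79, SE 0.08) while Sms, the spermine synthase, rose from 18.2 ± 1.37 to 31.4 ± 2.31 CPM (0.79, SE 0.09). Odc1, the ornithine decarboxylase, named after its values were seen, fell from 140 ± 19.4 to 98.2 ± 9.93 CPM (-0.51), Azin1, which protects it from degradation, rose (0.56), and Sat1, which acetylates polyamines for export, fell (-0.81). Most of the monocyte-derived macrophage markers given beside Slc7a2, a list that includes Arg1, were lower in the same libraries. The part of these cells in the arginase level was not tested.

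Of 14 enzymes of glutamine and glutamate metabolism 5 were lower, 2 higher and 7 not past the threshold (median log2 fold change -0.17). Among all tested genes 20.8% were lower and 20.7% higher, also for the next list. Gpt, the cytosolic alanine aminotransferase, rose from 9.62 ± 1.89 to 37.5 ± 10.4 CPM (log2 fold change 1.96, SE 0.22, edgeR adjusted p = 0.000172). Gfpt1 was the other higher gene (0.35), of the hexosamine pathway, a call lost when some libraries were left out: the count was 1 when replicate 1, 2 or 4 of WT_BLM or 2 or 4 of KO_BLM was left out. Its relative Gfpt2 fell (-1.2, SE 0.19), as did Glud1 (-0.40), Got2 (-0.51), Got1 (-0.56) and Gclm (-0.44). Gclm was no longer past the threshold without KO_BLM replicate 1, 2 or 3 (edgeR adjusted p 0.0503 to 0.0636). Glul, the glutamine synthetase, named after its values were seen, had a log2 fold change of -0.15, not past the threshold (edgeR adjusted p = 0.579), with a sign that turned without KO_BLM replicate 4. Of 16 genes of branched-chain amino acid breakdown, which degrades substrates of LAT1 and LAT2, 5 were higher, 1 lower and 10 not past the threshold (median 0.13). The lower one was Bcat1, the cytosolic aminotransferase, at 3.69 ± 1.06 CPM in WT_BLM and 0.425 ± 0.223 CPM in KO_BLM (-3.09, SE 0.38, edgeR adjusted p = 0.000325). Those higher were the mitochondrial enzymes Mccc1 (0.56), Ivd (0.49), Pcca (0.43), Hibch (0.38) and Mccc2 (0.37), and without KO_BLM replicate 2 the count was 3. Hibch was not past the threshold without WT_BLM replicate 1 or KO_BLM replicate 2 or 4 (edgeR adjusted p 0.0638 to 0.0737), nor Pcca without WT_BLM replicate 3 or KO_BLM replicate 1, 2 or 3 (0.0534 to 0.0762).

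ATF4 drives the response to amino acid shortage. Of 19 tested genes of this response 5 were lower, 4 higher and 10 not past the threshold (median log2 fold change -0.25), beside 20.8% lower and 20.7% higher among all tested genes, and with the replicate number as a block 8 were lower. Ddit4, an inhibitor of mTORC1, fell from 126 ± 36.6 to 36.8 ± 6.91 CPM (log2 fold change -1.78, SE 0.22, edgeR adjusted p = 0.000324). Also lower were the transfer RNA synthetases Gars (-0.57) and Aars (-0.38), Cebpb (-0.41) and Eif2ak4, which encodes the sensor kinase GCN2 (-0.41). Atf5 (0.63), Ddit3 (0.53), Cebpg (0.52) and Chac1 (0.52) rose, and the count of higher genes was 2 when replicate 1 of WT_BLM or replicate 1 or 2 of KO_BLM was left out, through Atf5 (edgeR adjusted p 0.0508 to 0.0613) and Chac1. Among fits with 1 library left out, the call of Chac1 held without WT_BLM replicate 2 or KO_BLM replicate 3 and ended in the other 6 (0.057 to 0.12), and that of Eif2ak4 ended without KO_BLM replicate 2 (0.0514). Atf4 itself (225 ± 12.1 and 189 ± 23.1 CPM, edgeR adjusted p = 0.0648) and its target Asns, the asparagine synthetase (32.5 ± 1.39 and 33.1 ± 1.2 CPM, 0.786), both named after their values were seen, were not past the threshold, though Atf4 passed it without KO_BLM replicate 1 (0.0352), with the replicate block (0.0493) and with DESeq2 (0.0476). Of 27 tested genes of amino acid sensing by mTORC1, 6 were lower, 2 higher and 19 not past it (median -0.11). Lamtor1, of the lysosomal Ragulator complex, fell (-0.60), as did the small GTPases Rragc (-0.74) and Rheb (-0.36) and the mTORC1 subunit Rptor (-0.26, lost with library totals alone, edgeR adjusted p = 0.0695). Nprl2, of the GATOR1 complex (0.70), rose, as did Rragb (1.24) from a low level (1.07 ± 0.219 to 2.55 ± 0.381 CPM).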

How the data were processed

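RNA of 4 WT_BLM and 4 KO_BLM mouse lungs was isolated with TRIzol, and sequencing libraries came from a TruSeq Stranded mRNA kit, per the labels' protocols. The authors deposited unnormalized counts for 18824 genes and FPKM values, which equalled count over library total and 1 length per gene for 100% of genes (relative tolerance 1e-06). DESeq, Cufflinks, HTSeq, Trimmomatic and the mm10 build are named in the submitters' processing notes. Not given in the sources used here are aligner, gene annotation and strand setting, and without the last, genes that overlap on opposite strands may share reads. PHT2 in the column names is a synonym of SLC15A3, and such columns were taken as the KO_BLM replicates of the same number.

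Counts were tested in R 4.3.3 with edgeR 4.0.16 (filterByExpr, minimum count 10 and minimum total 15, TMM, robust quasi-likelihood F test, Benjamini-Hochberg adjustment over 14746 tested genes, threshold 0.05), and SE is the absolute log2 fold change divided by the root of F. The biological coefficient of variation was 16.6%, and replicates differed by more than sampling noise in every pair (chi-square over its degrees of freedom 7.24 to 55.7). Fits with DESeq2 1.42.0, with limma 3.58.1 on log2(FPKM + 1) and log2(FPKM + 0.1), with RLE factors, with library totals alone, without the low-count filter, with a stricter one (1 CPM in 4 libraries), with a replicate block and with each library left out served as alternatives. Coding transcript lengths (GENCODE M21) were added after the data were seen. On simulated data for this comparison (14665 genes, 200 of them changed) 36.4% of changes of 1.5-fold, 80.3% of 2-fold and 100% of 4-fold were recovered, and 5.92% of calls were false. The simulation changed far fewer genes than the 6118 called in the data, so these shares need not hold for the data.

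The members and the gene lists were chosen with earlier results of these data known. The text names all members, Slc15a3, up to 6 genes of smallest p from each list and any gene behind a count of 5 or fewer, the 5 genes most like Slc7a10, Slc7a2 and Slc7a5 (mean of at least 5 CPM, log2 CPM with prior count 2), and the exceptions marked in the text. Genes overlapping a member were added after the data were seen. Gene spans come from RefSeq on GRCm38. Slc7a2 and Slc7a5 also overlap the GENCODE loci Gm26584 and Gm20388, which have no row of their own in the table used here. Protein sequences were not analysed here.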

Additional observations from a re-analysis of the deposited data

Results flagged for a closer look

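Among 128 groups of 4 libraries checked for the genes named, 7 held a library whose gap to the nearest other was too large a part of the group's range by Dixon's 95% criterion. Chance gives this in about 1 in 20 groups. Both members among them were in KO_BLM: Slc7a5 was at 17.8 CPM in replicate 3 with 12.8 CPM in each of the other 3, and Slc7a1 was at 33.3 CPM in replicate 1 with 24.2 to 25.4 CPM in the others. In KO_BLM Azin1 was at 182 CPM in replicate 4 (130, 130 and 132 CPM in the others) and Mccc1 at 17.7 CPM in replicate 4 (21.4 to 21.9 CPM). Cebpg was at 81.0 CPM in KO_BLM replicate 3 and at 103 CPM in the other 3. In WT_BLM Lamtor1 was at 119 CPM in replicate 4 (103, 103 and 105 CPM in the others), and Hibch was at 8.03 CPM in replicate 1 (8.78 to 8.84 CPM).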

How the results depend on the processing

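The count of members was 2 higher and 6 lower in every alternative run, including each library left out, which is a description, since they were chosen on this contrast. The sign of Slc7a7 turned with library totals alone (0.0436), with limma on log2(FPKM + 1) (0.0375) and log2(FPKM + 0.1) (0.0403), and without 1 library (range -0.12 to 0.0455, above 0 without WT_BLM replicate 3 or KO_BLM replicate 1). With 1 library left out Glul ranged from -0.25 to 0.0262, turning without KO_BLM replicate 4, and Lrp3 from -0.0041 to 0.19, turning without KO_BLM replicate 1. The median of all tested genes was 0.09 with library totals alone. Counts of other SLC7 and SLC3 genes were 1 higher with no filter on low counts and 0 lower with library totals alone and with limma on either FPKM scale, and with 1 library left out 0 to 2 higher and 0 to 1 lower. The count of lower arginine and polyamine enzymes was 5 with library totals alone and with limma on log2(FPKM + 1) and log2(FPKM + 0.1), and 5 to 10 with 1 library left out. The count of lower mTORC1 sensing genes was 3 with limma on both FPKM scales. With 1 library left out, 1 to 2 glutamine and glutamate enzymes, 3 to 5 genes of branched-chain amino acid breakdown and 2 to 4 ATF4 response genes were higher. The cause of these changes was not tested. The promoter window of Slc7a1 also held GCGTG when 50 bases after the start were included, 2 members in place of 1.

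Replicate numbers did not pair the samples: the deviations of same-numbered libraries correlated at -0.0922 to 0.0887, and 0 KO_BLM libraries were best matched by their own number. With the replicate block 2878 genes were higher and 2824 lower, and the list counts that moved by over 1.5 times were 1 other SLC7 and SLC3 gene higher, 1 glutamine and glutamate enzyme higher and 8 ATF4 response genes lower. Depth limits Slc7a10 in WT_BLM (16 to 27 counts) and the family genes near 1 CPM. The groups differ in genotype and in many cell type markers at once, which 4 libraries a group of whole lung cannot tell apart.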
